A study of Mus musculus with 8 samples.

Results

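Collagen chain genes were measured in the epididymal fat pad of mice given prednisolone or vehicle. They were taken as every gene whose symbol is Col, a number, the letter a and a number, which gave 44 of the 22180 named genes on the array: 11 chains of the fibrillar class, 6 of the basement membrane network (type IV) and 27 of other classes. The limit set on dim genes, a mean log2 value of 5.82 over all arrays, left 41 of the 44 for testing. The samples were 8 male C57BL/6 mice, 1 array each, and every mouse of both groups ate an n-6 rich diet with 45% of its energy from fat from 3 weeks of age until its left epididymal fat was taken at 10 weeks. The 4 mice labelled GC+ swallowed the synthetic glucocorticoid prednisolone (40 mg per kg per square metre, as the labels write it) each day in sweet potato puree over the last 4 weeks, starting at 6 weeks of age. The 4 mice labelled GC- swallowed the puree without drug. The comparison asks how long glucocorticoid treatment on this diet changes the depot's transcripts. No mice on another diet are among the samples, so all values hold for this diet. Mice are called here by group and label number, such as GC- 3.

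Collagens are secreted proteins of 3 chains wound into a triple helix, and each chain has its own gene. Fibrillar collagens (types I, III and V in most soft tissues) are trimmed outside the cell and packed into cables that bear tension, mainly by fibroblast-like stromal cells. Type IV collagen forms the sheet-like network of basement membranes, which wrap every fat cell and every capillary, and type VI collagen forms beaded filaments that are abundant in fat and couple the basement membrane to the fibrils. Glucocorticoids are known to lower type I collagen synthesis in skin and cultured fibroblasts, and collagen builds up in expanding fat as it becomes fibrotic.

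The arrays read as fat: the fatty acid carrier Fabp4 lay between 13.72 and 13.97 and the adipocyte hormone Adipoq between 11.74 and 12.29 on all 8. The pad lies against the epididymis, and epididymal RNA differed widely between mice. The score of 7 epididymis markers (each marker centred on its own mean over the 8 arrays, then averaged) was 3.72 in GC+ 2, 3.38 in GC- 1 and 1.79 in GC- 4, 0.99 in GC+ 1, and between -3.00 and -1.23 in the other 4. Because this is bulk tissue, fewer cells of a type and less RNA per cell cannot be told apart. Values from a fit without the 3 arrays of highest score, which keeps 3 GC+ and 2 GC- mice, are given beside many of the chains and partner genes. Where no such value is given, the difference may have moved too. The limit was a score of 1, so GC+ 1 at 0.99 was kept. Its value for the epididymis marker Gpx5 was 11.27, against 4.57 in GC+ 3 and 4.76 in GC+ 4, so this fit is not free of epididymal RNA. All values are log2 RMA values, which do not allow levels of different genes to be set against each other, and differences are GC+ minus GC- given ± the standard error from the fit (limma, n = 4 per group).

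No collagen chain separated the groups beyond the error of the test across genes. With limma, 0 of 41 chains passed a Benjamini-Hochberg adjusted p of 0.05, as did 0% of the 14787 genes tested, and the lowest adjusted p of any chain was 0.768. At an unadjusted limma p under 0.05 there were 3 chains, all higher in GC+ and all minor fibrillar chains (Col2a1, Col11a2 and Col24a1), against 5.69% of all genes (3.37% higher and 2.33% lower). The groups did not overlap in 2 chains, both higher in GC+, against 1.81% of all genes higher and 1.39% lower. GC+ averaged higher in 28 of 41 chains (68.3%, against 54.6% of all genes). The median difference was 0.21 over the 10 fibrillar chains, 0.01 over the 6 type IV chains and 0.06 over the 25 others, and 0.02 over all tested genes. Single mice moved these figures. The count of 3 became 0 without GC- 1 and 2 without GC+ 2, beside 4.13% and 7.43% of all genes. It became 1 without GC+ 1, GC+ 3 or GC+ 4, beside 4.41%, 3.77% and 3.61%. It became 9, all higher in GC+, without GC- 3, where 8.58% of all genes were called. Without GC- 4 the called chains were 2 others, Col15a1 and Col6a3, both lower in GC+, beside 2.95% of all genes. With array weights or the epididymis score as covariate it was 5, beside 13.4% and 8.26% of all genes. The fibrillar median became 0.09 without GC- 1 and 0.05 without GC- 4. Without the 3 arrays of highest epididymis score it was -0.08, GC+ was higher in 16 of 41 chains, and the 1 chain at an unadjusted p under 0.05 was Col6a3, lower in GC+, beside 3.36% of all genes. Its difference was then -0.49, with a limma adjusted p of 0.957.

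**Figure D1:**
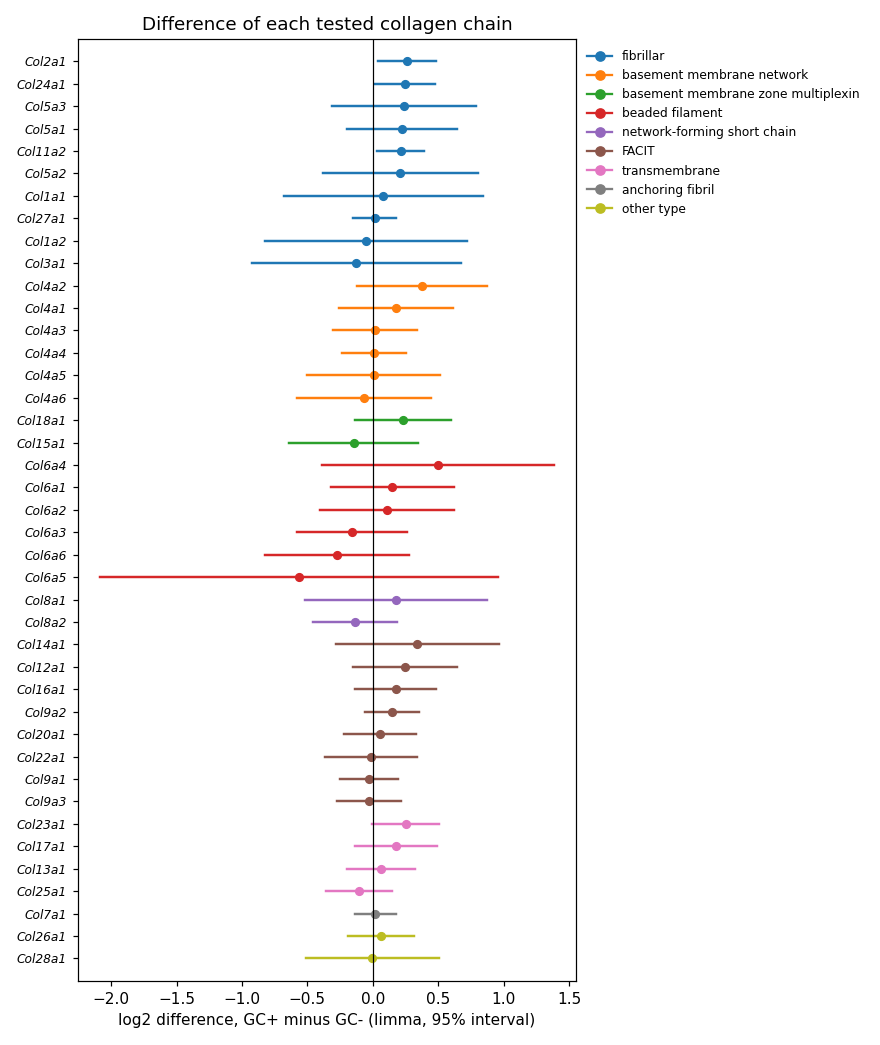
Each point is the log2 difference GC+ minus GC- of 1 of the 41 tested collagen chains, coloured by class, and each line its 95% interval from limma (n = 4 per group). The intervals of Col2a1, Col11a2 and Col24a1 are the 3 that do not reach 0, and that of Col6a5 is the widest, from -2.08 to 0.96.

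The major fibril chains, which build most of the collagen of connective tissue, had near-equal group means and a wide spread between mice. Col1a1, the alpha 1 chain of type I, read 11.28, 11.40, 10.47 and 10.91 in GC+ 1 to 4 and 10.62, 10.73, 11.89 and 10.50 in GC- 1 to 4. The highest and the second lowest of its values are both vehicle mice, and the GC+ values lie wholly inside the GC- range apart from GC+ 3. Its difference was 0.08 ± 0.33, with a 95% interval from -0.68 to 0.84 and a limma adjusted p of 0.957. Col1a2, which supplies the other chain of type I, read 10.97, 10.80, 9.91 and 10.48 in GC+ and 10.18, 10.36, 11.52 and 10.31 in GC- (-0.05 ± 0.34, adjusted p = 0.971). Col3a1, the chain of type III, which mixes with type I in pliable tissue, read 11.69, 11.33, 10.76 and 11.24 in GC+ and 10.95, 11.29, 12.42 and 10.88 in GC- (-0.13 ± 0.35, adjusted p = 0.935). All 3 chains were highest in GC- 3 and lowest in GC+ 3. Without GC- 3 the differences were 0.40 for Col1a1, 0.26 for Col1a2 and 0.22 for Col3a1, and without GC+ 3 they were 0.26, 0.16 and 0.04, so the negative sign of the last 2 rested on either mouse. Without the 3 arrays of highest epididymis score they were -0.42, -0.49 and -0.62, in a comparison where GC- 3 is 1 of 2 vehicle mice. A dimmer probe set for Col1a2 had the same mouse at the top (8.33) and the same mouse at the bottom (6.65), with a difference of -0.20.

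Type V chains start fibrils and set their width, and Col5a1 and Col5a2 showed close GC+ values and scattered GC- values. Col5a1 read 9.37, 9.38, 9.53 and 9.51 in GC+ against 8.89, 9.44, 9.68 and 8.89 in GC- (0.22 ± 0.18, adjusted p = 0.795). Col5a2 read 8.71, 8.49, 8.58 and 8.63 in GC+ against 7.96, 8.53, 9.17 and 7.92 in GC- (0.21 ± 0.26, adjusted p = 0.853). In both, the 4 GC+ mice sat between a low pair, GC- 1 and GC- 4, and the single high mouse GC- 3. A dimmer probe set for Col5a1 kept the low pair but not the high mouse. It read 6.899, 6.835, 6.855 and 6.858 in GC+ and 6.653, 6.875, 6.821 and 6.560 in GC-, a difference of 0.13. There GC+ 1 was highest and GC- 3 lay below all 4 GC+ mice. The SD of Col5a2 was 0.09 in GC+ and 0.59 in GC-. The differences of Col5a1 (brighter probe set) and Col5a2 turned to -0.09 and -0.21 without the 3 arrays of highest epididymis score, of which GC- 1 and GC- 4 are 2. Col5a3, another type V chain, read 9.38, 9.27, 9.98 and 9.52 in GC+ and 9.37, 9.79, 9.34 and 8.70 in GC- (0.24 ± 0.24; 0.06 without those 3 arrays). Its highest mouse was GC+ 3, and its SDs of 0.31 and 0.45 were less unequal.

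The 3 chains at an unadjusted p under 0.05 are best known from cartilage and bone, and their signal on these arrays was low. Col2a1, the cartilage fibril chain, read 6.89, 6.95, 7.00 and 6.99 in GC+ and 6.60, 6.78, 6.90 and 6.52 in GC-, a difference of 0.26 ± 0.10 (1.20-fold). Its groups overlapped by 1 mouse, GC- 3, which lay above GC+ 1. Col11a2, a chain of type XI, which nucleates cartilage fibrils, read 6.89, 6.73, 6.82 and 6.86 in GC+ and 6.48, 6.71, 6.67 and 6.58 in GC- (0.21 ± 0.08). Col24a1, a fibrillar chain of developing bone, read 6.11, 6.27, 6.15 and 6.08 in GC+ and 5.66, 6.03, 6.00 and 5.95 in GC- (0.24 ± 0.10). In both, every GC+ mouse lay above every GC- mouse, narrowly: the nearest values were 6.73 and 6.71 for Col11a2 and 6.08 and 6.03 for Col24a1. Each of the 3 had an adjusted limma p of 0.768. The differences were 0.12, 0.16 and 0.10 without the 3 arrays of highest epididymis score. Col27a1 read between 7.00 and 7.15 on all arrays (0.01 ± 0.07), and Col11a1, with a mean of 5.55, was too dim to be tested, as was Col10a1, a short network chain of growth cartilage.

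Col1a2 and Col3a1 stood together in their order of mice and Col24a1 stood apart, so the 250 bases before their annotated starts are shown. They are from RefSeq, assembly GRCm38.p6, all on the plus strand: Col1a2 at chr6:4505368-4505617, Col3a1 at chr1:45311288-45311537 and Col24a1 at chr3:145292222-145292471. Capitals mark every match on either strand to 4 motifs: CCAAT (bound by NF-Y), GGGCGG (the GC box of Sp1), TATAAA (the TATA box) and AGAACA (a single arm of the palindrome that the glucocorticoid receptor binds).
Col1a2: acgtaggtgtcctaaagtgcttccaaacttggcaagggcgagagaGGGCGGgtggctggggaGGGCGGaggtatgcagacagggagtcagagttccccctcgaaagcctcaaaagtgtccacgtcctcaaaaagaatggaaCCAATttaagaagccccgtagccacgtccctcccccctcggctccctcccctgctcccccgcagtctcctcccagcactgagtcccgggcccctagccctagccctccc
Col3a1: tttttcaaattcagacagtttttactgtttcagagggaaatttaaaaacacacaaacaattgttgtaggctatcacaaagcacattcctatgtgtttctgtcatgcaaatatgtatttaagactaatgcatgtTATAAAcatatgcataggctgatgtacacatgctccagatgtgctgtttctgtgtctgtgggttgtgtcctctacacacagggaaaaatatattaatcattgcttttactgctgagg
Col24a1: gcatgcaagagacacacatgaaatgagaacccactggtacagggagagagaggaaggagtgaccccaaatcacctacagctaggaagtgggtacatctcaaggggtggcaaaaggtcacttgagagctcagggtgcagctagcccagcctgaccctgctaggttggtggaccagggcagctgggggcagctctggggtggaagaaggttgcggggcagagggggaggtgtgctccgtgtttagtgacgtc
The Col1a2 window holds GGGCGG at bases -205 and -188 and CCAAT at -109 from the start, the Col3a1 window holds TATAAA at -117, and the Col24a1 window holds none of the 4. RefSeq windows were found for 35 of the 44 genes, 38 windows in all. The genes without a window were Col1a1, Col2a1, Col4a3, Col5a2, Col9a3, Col12a1, Col14a1, Col22a1 and Col26a1. The shares below leave these out. AGAACA or its reverse TGTTCT was in 2 of the 38 (5.26%; Col20a1 and Col9a1), against 16.1% of all 32851 windows. CCAAT or ATTGG was in 34.2% of the collagen windows and 33.8% of all, GGGCGG or CCGCCC in 57.9% and 32.7%, and TATAAA or TTTATA in 13.2% and 12.4%. A match is only a run of letters and is no evidence of binding.

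The basement membrane network fell into pairs of chains. Col4a1 and Col4a2, which form the type IV protomer of nearly all basement membranes, were bright, and followed a different order of mice from types I and III. Col4a1 read 10.46, 10.28, 10.74 and 10.73 in GC+ and 10.10, 10.75, 10.62 and 10.03 in GC- (0.18 ± 0.19, adjusted p = 0.832). Col4a2 read 10.22, 10.11, 10.67 and 10.60 in GC+ and 9.91, 10.39, 10.30 and 9.51 in GC- (0.37 ± 0.22, 1.30-fold, adjusted p = 0.768, 95% interval from -0.13 to 0.87). Both were lowest in GC- 4 and next lowest in GC- 1, and GC+ 3, the lowest mouse for Col1a1, was first for Col4a2 and second for Col4a1. The Col4a2 difference was 0.20 without GC- 4 and 0.15 without the 3 arrays of highest epididymis score, where that of Col4a1 was -0.04. For Col4a2 it was 0.495 without GC- 2 and 0.527 with array weights. Its unadjusted limma p was under 0.05 with array weights and with the epididymis score as covariate, beside 13.4% and 8.26% of all genes. The adjusted limma p was then 0.366 and 0.588. The 2 genes lie head to head on chromosome 8, with annotated first bases 21 bases apart in RefSeq (Col4a2 at 11312805 on the plus strand, Col4a1 at 11312826 on the minus strand). Each start lies inside the other gene, so the annotated starts overlap and no spacer lies between them. The 30 bases around the CCAAT motif before the Col4a2 start, chr8:11312761-11312790 of GRCm38.p6 on the plus strand, are shown with the motif in capitals. They lie before Col4a2 only, on the transcribed side of the Col4a1 first base, and the window before Col4a1 holds its own ATTGG at base -145.
Col4a2: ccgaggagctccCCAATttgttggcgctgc
The other 4 type IV chains, of kidney, lung, smooth muscle and epithelial membranes, had lower signals. Col4a5 read 7.48, 7.26, 7.04 and 7.42 in GC+ and 7.02, 6.95, 7.96 and 7.24 in GC- (0.01 ± 0.22, adjusted p = 0.995). Its head-to-head partner Col4a6 differed by -0.07 ± 0.22 (-0.32 without the 3 arrays of highest epididymis score), with 7.35 in GC- 3 and between 6.31 and 6.69 elsewhere. Both were thus highest in GC- 3. Col4a3 read 6.26, 6.45, 5.96 and 6.16 in GC+ and 6.04, 5.97, 6.32 and 6.43 in GC- (0.01 ± 0.14), and Col4a4 6.35, 6.48, 6.18 and 6.53 against 6.41, 6.18, 6.41 and 6.51 (0.01 ± 0.11). The groups lay on top of each other in both. The type IV median of 0.01 became 0.20 without GC- 3 and -0.06 without GC- 2, and was negative (-0.03) without the 3 arrays of highest epididymis score.

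**Figure D2:**
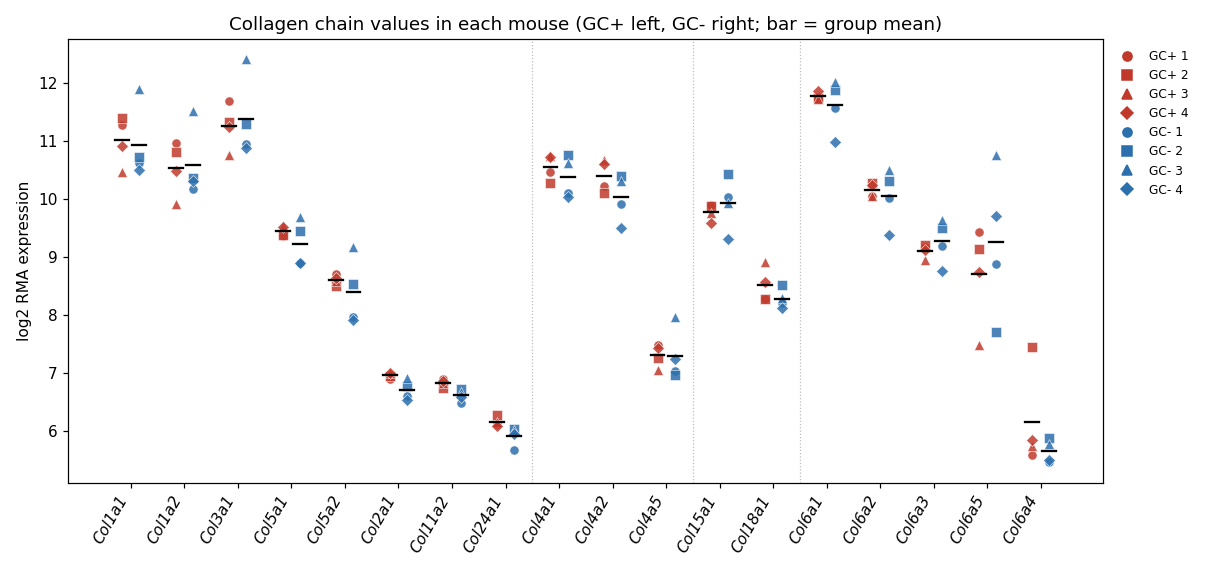
Log2 RMA values of collagen chains named in the text, in each mouse (GC+ red, on the left of each gene; GC- blue, on the right; shape gives the mouse number; black bars are group means, n = 4). Vehicle mouse GC- 3 tops Col1a1, Col1a2, Col3a1, Col5a2 and Col6a5, and for Col6a1 and Col6a2 the lowest point is GC- 4.

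The multiplexins, collagens of basement membrane zones whose ends are cut to endostatin-like fragments, did not move as one. Col15a1, which links basement membranes to fibrils, read 9.90, 9.88, 9.76 and 9.58 in GC+ and 10.03, 10.44, 9.93 and 9.32 in GC- (-0.15 ± 0.21, adjusted p = 0.873). The highest and the lowest value were both GC- mice, and the difference was 0.02 without GC- 2, -0.35 without GC- 4 and -0.44 without the 3 arrays of highest epididymis score. Col18a1, the source of endostatin, read 8.28, 8.27, 8.91 and 8.57 in GC+ and 8.20, 8.52, 8.28 and 8.11 in GC- (0.23 ± 0.16, adjusted p = 0.773). Mouse GC+ 3 was the highest for Col18a1, and the difference was 0.09 without it.

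Type VI filaments are assembled from Col6a1, Col6a2 and 1 longer chain, most often Col6a3. Col6a1 read 11.72, 11.75, 11.73 and 11.86 in GC+ and 11.57, 11.88, 12.02 and 10.99 in GC- (0.15 ± 0.20, adjusted p = 0.866). Col6a2 read 10.05, 10.28, 10.06 and 10.24 in GC+ and 10.03, 10.30, 10.50 and 9.37 in GC- (0.11 ± 0.22). Col6a3 read 9.16, 9.21, 8.94 and 9.12 in GC+ and 9.19, 9.49, 9.64 and 8.76 in GC- (-0.16 ± 0.18). In all 3 the order within the vehicle group was the same, GC- 3, GC- 2, GC- 1 and GC- 4 from high to low, and the GC+ values lay inside the GC- range. The SD of Col6a1 was 0.07 in GC+ and 0.46 in GC-. The differences without GC- 4 were -0.06, -0.12 and -0.33, and without the 3 arrays of highest epididymis score -0.18, -0.29 and -0.49. A dimmer probe set for Col6a1 differed by 0.01, with the same highest (8.51, GC- 3) and lowest (7.42, GC- 4) mouse. Because Col6a1 and Col6a2 shared their order of mice within the vehicle group, the 250 bases before their starts in RefSeq are shown (GRCm38.p6, minus strand, chr10:76726045-76726294 and chr10:76623631-76623880, written in the direction of the gene, same motifs in capitals).
Col6a1: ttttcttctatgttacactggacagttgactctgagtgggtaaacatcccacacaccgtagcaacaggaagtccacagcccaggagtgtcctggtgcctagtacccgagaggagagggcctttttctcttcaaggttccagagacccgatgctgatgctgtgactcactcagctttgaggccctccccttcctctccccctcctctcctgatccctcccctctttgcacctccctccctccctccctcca
Col6a2: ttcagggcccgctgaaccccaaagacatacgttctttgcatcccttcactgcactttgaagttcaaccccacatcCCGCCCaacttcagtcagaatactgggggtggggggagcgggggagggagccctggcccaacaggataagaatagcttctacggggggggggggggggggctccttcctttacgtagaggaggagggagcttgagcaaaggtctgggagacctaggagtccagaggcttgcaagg
The Col6a1 window holds none of the 4 motifs, and the Col6a2 window holds CCGCCC at base -175. A window at another annotated start of Col6a2, not printed, holds CCGCCC at -67, -15 and -11.

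Type VI filaments can hold other long chains in place of Col6a3. Col6a5 read 9.42, 9.14, 7.48 and 8.74 in GC+ and 8.87, 7.70, 10.76 and 9.71 in GC-, a range of 3.28 over 8 arrays, the widest of the 41 chains (median 0.792, against 0.53 over all tested genes). It was named for this spread after its values were seen. Its low mice were GC+ 3 and GC- 2, 1 in each group, and its difference was -0.56 ± 0.66 (adjusted p = 0.846). It was -0.06 without GC- 3, -0.16 without GC+ 3 and -1.08 without GC- 2. Col6a6 was likewise highest in GC- 3 (8.89) and lowest in GC+ 3 (7.57). Its difference of -0.28 was -0.49 without the 3 arrays of highest epididymis score. Col6a4, the dimmest tested chain with a mean of 5.89, read 5.57, 7.44, 5.73 and 5.83 in GC+ and 5.45, 5.88, 5.76 and 5.49 in GC-. The value of GC+ 2 stood alone, and the difference of 0.50 ± 0.39 was 0.07 without it and -0.11 without the 3 arrays of highest epididymis score. Without that value the mean of Col6a4 lies below the limit of 5.82, and its GC- mean was 5.644. Its place among the tested chains, and among the 28 of 41 higher in GC+, thus rested on GC+ 2. Of the 7 epididymis markers, Lcn8 (13.50), Lcn9 (13.61) and Cst11 (12.25) were highest in GC+ 2 and reached at most 9.51, 10.12 and 7.82 in the other mice. Gpx5 was about as high in GC+ 2 (13.81) as in GC- 1 (13.78) and GC- 4 (13.61), and so was Adam7 (13.21, 13.57 and 13.21). Lcn5 and Spint4 were lower in GC+ 2 (10.22 and 6.68) than in GC- 1 (13.82 and 12.31) and GC- 4 (13.64 and 12.12), and in those vehicle mice Col6a4 was low. The part of epididymal RNA in the Col6a4 value was not tested. On the other side of the limit for testing, the brightest chain left out was Col19a1, with a mean of 5.68.

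Chains that decorate fibrils (the FACIT class, for fibril-associated collagens with interrupted triple helices) were higher in GC+ for 5 of 8 tested members, with a median difference of 0.10. Col14a1, a fibril linker of fascia and dermis, read 9.61, 9.05, 8.70 and 9.13 in GC+ and 8.24, 8.79, 9.44 and 8.67 in GC- (0.34 ± 0.27, adjusted p = 0.789). Its difference ran from 0.16 without GC- 1 to 0.56 without GC- 3, and was 0.03 without the 3 arrays of highest epididymis score. Col12a1, found on fibrils under load, read 7.52, 7.65, 8.20 and 7.46 in GC+ and 7.59, 7.49, 7.58 and 7.19 in GC- (0.24 ± 0.17), and 0.08 without GC+ 3. The groups overlapped in both. The remaining FACIT chains differed by between -0.03 and 0.18.

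Col8a1, a short chain of the network class laid down by endothelial, smooth muscle and lining cells, read 7.89, 7.35, 7.78 and 8.02 in GC+ and 7.32, 7.49, 8.50 and 7.04 in GC- (0.17 ± 0.30, adjusted p = 0.894). Again the highest mouse was GC- 3 and the lowest GC- 4. The difference was 0.48 without the first and -0.01 without the second, and -0.09 without the 3 arrays of highest epididymis score. Its partner chain Col8a2 differed by -0.14 ± 0.14. Among transmembrane collagens, Col23a1 read 7.63, 7.32, 7.44 and 7.58 in GC+ and 7.10, 7.47, 7.28 and 7.11 in GC- (0.25 ± 0.11, adjusted p = 0.768), where 1 vehicle mouse, GC- 2, lay within the GC+ range. It reached an unadjusted p under 0.05 with array weights, with the epididymis score as covariate, without GC+ 2 and without GC- 2. The other 3 transmembrane chains differed by between -0.11 and 0.18. Col7a1, the anchoring fibril chain of skin and other lined surfaces, read between 6.65 and 6.78 on all 8 arrays (0.02 ± 0.07, adjusted p = 0.953), the narrowest range of the 41 chains at 0.123. Col26a1 differed by 0.06 ± 0.11 and Col28a1 by 0.00 ± 0.22.

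**Figure D3:**
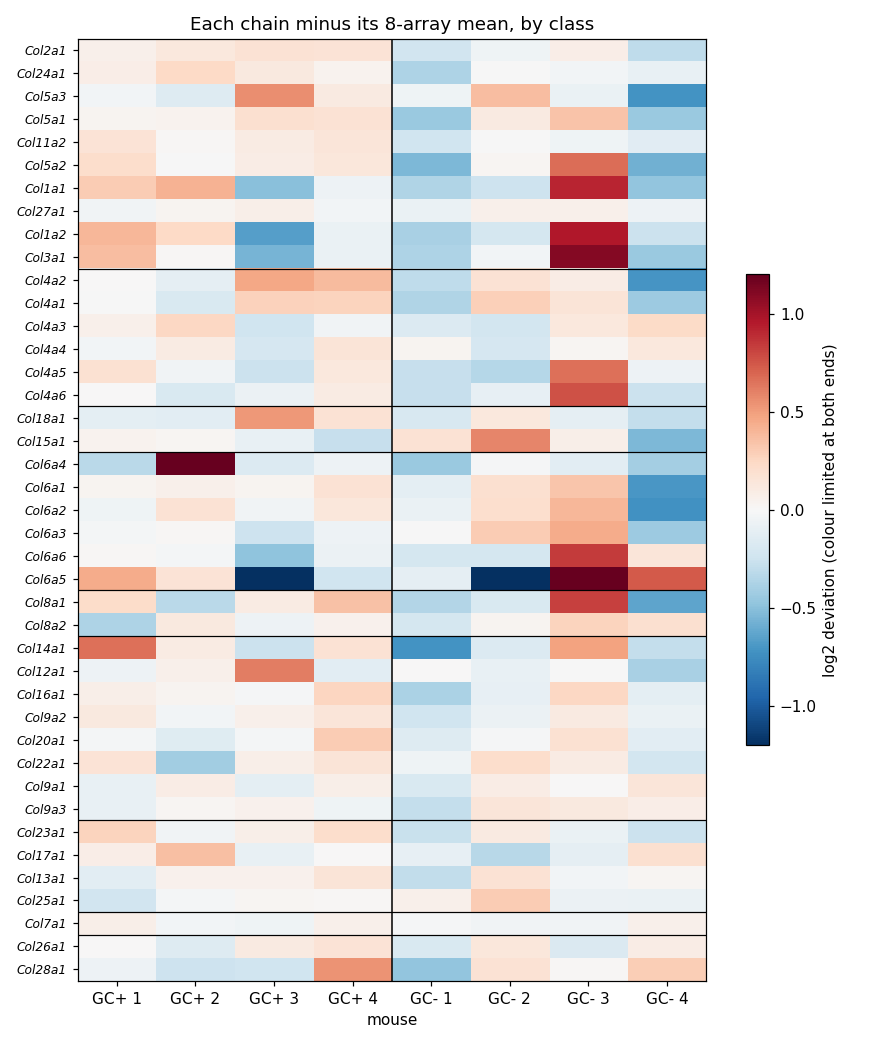
Colour gives each tested chain's log2 value in each mouse minus its mean over 8 arrays (red above, blue below; colour limited at both ends of the scale), with classes separated by lines and GC+ mice on the left. The red column of GC- 3 covers types I, III, V (Col5a1 and Col5a2) and VI apart from Col6a4, and the blue cells gather in GC- 1 and GC- 4.

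The collagens varied between mice more than the typical gene, and the extremes gathered in a few vehicle mice. GC- 3 was the highest of 8 mice for 14 of 41 chains (34.1%, against 13.6% of all tested genes) and the lowest for 0. GC- 1 or GC- 4 was the lowest for 28 chains (68.3%, against 37.7% of all genes). The SD was larger in GC- than in GC+ for 32 of 41 chains (78%) and for all 10 tested fibrillar chains, against 61.4% of all genes. The median SD of fibrillar chains was 0.088 in GC+ and 0.426 in GC-, against 0.148 and 0.177 over all genes. The SDs differed widely between chains, so the 2 medians do not give the ratio of a typical chain. In GC+ and GC- they were 0.42 and 0.65 for Col1a1, 0.38 and 0.71 for Col3a1, 0.09 and 0.59 for Col5a2, and 0.056 and 0.075 for Col27a1. Without GC- 3 the SD was larger in GC- for 26 of 41 chains, 7 of them fibrillar, against 55.3% of all genes. Without the 3 arrays of highest epididymis score this count was 25 of 41, against 46.6%. These counts were made with the values in view, and no test of unequal spread was run.

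Class scores, built like the epididymis score, show the mice side by side. The fibrillar score was 0.16, 0.10, -0.04 and 0.05 in GC+ 1 to 4 and -0.31, 0.00, 0.40 and -0.35 in GC- 1 to 4. The type IV score was 0.04, -0.03, 0.00 and 0.17 in GC+ and -0.23, -0.07, 0.30 and -0.18 in GC-, and that of all other chains 0.03, 0.05, -0.07 and 0.09 against -0.19, 0.01, 0.22 and -0.13. In each class the GC+ mice lay between GC- 3 above and GC- 1 and GC- 4 below. Markers of some other cells moved with some of these mice. The score of 5 mesothelial markers (the lining of the pad) was 1.23 in GC- 3, -0.03 in GC- 1 and -1.14 in GC- 4, and ran from -0.59 to 0.38 in GC+. The score of 8 macrophage markers was 0.51 in GC- 3, -0.56 in GC- 1 and -0.63 in GC- 4, and ran from 0.05 to 0.44 in GC+; all 8 averaged higher in GC+. The score of 7 adipose fibroblast and progenitor markers was 0.31 in GC- 3, -0.35 in GC- 1 and 0.07 in GC- 4, and -0.17 to 0.22 in GC+. The 8 endothelial markers, of cells that lie on type IV membranes, scored -0.50 in GC+ 3 and 0.43 in GC+ 4, the 2 GC+ mice with the most Col4a1 and Col4a2, and -0.53 in GC- 1, 0.35 in GC- 2, 0.38 in GC- 3 and 0.13 in GC- 4; 1 of the 8 averaged higher in GC+. The 5 smooth muscle markers scored -0.30 to 0.37 in GC+ and -0.21 to 0.51 in GC-, with 2 of 5 higher in GC+. All 8 adipocyte markers averaged higher in GC+, with scores from -0.08 to 0.22 against -0.33 in GC- 1 and up to 0.10 in the other vehicle mice. Of the mesothelial markers 4 of 5 averaged higher in GC+, of the fibroblast markers 5 of 7 and of the epididymis markers 3 of 7. RMA values have no 0, so no marker is listed at 0. The part of these cells in the collagen values was not tested.

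**Figure D4:**
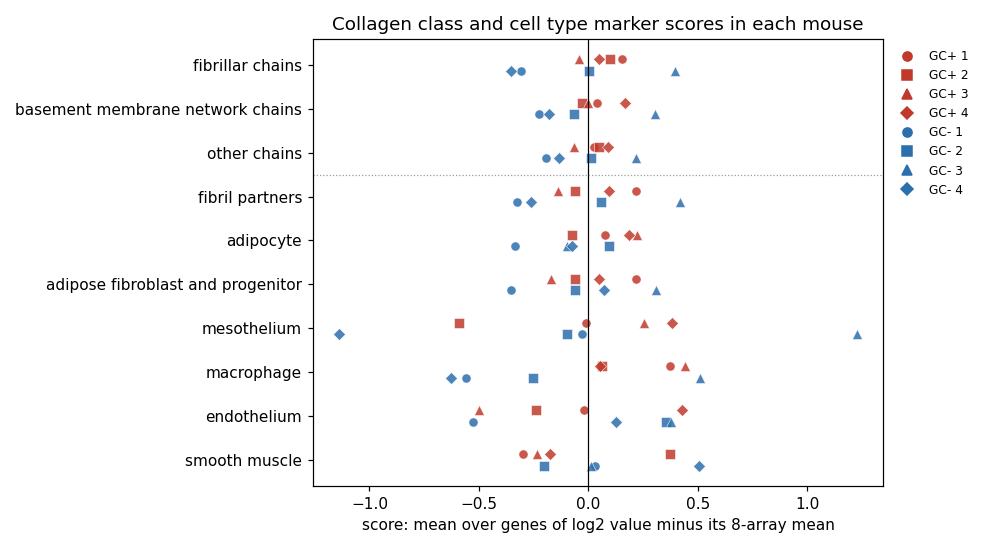
Each point is 1 mouse (GC+ red, GC- blue, shape gives the mouse number) and its score on the x axis is the average over a list's genes of log2 values centred on their 8-array means. GC- 3 lies highest for the 3 collagen groups and for fibril partners, mesothelium and macrophages, and GC- 1 and GC- 4 lie lowest for the 3 collagen groups and fibril partners.

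Genes that build, trim and bind collagen were taken from set lists; 0 of 62 tested genes passed the adjusted limma threshold and 2, Mrc2 and Lamb3, had an unadjusted p under 0.05, both higher in GC+, beside 5.69% of all genes (3.37% higher). Enzymes and chaperones of the endoplasmic reticulum that hydroxylate, fold and export the chains were higher in GC+ for 10 of 19, with a median of 0.00. Serpinh1, the chaperone HSP47 that binds the folded helix, read 10.13, 10.00, 10.37 and 10.08 in GC+ and 9.81, 10.23, 10.14 and 9.29 in GC- (0.28 ± 0.20, adjusted p = 0.777; 0.08 without GC- 4 and 0.01 without the 3 arrays of highest epididymis score). Genes that trim procollagen and cross-link fibrils were higher in GC+ for 7 of 9, with a median of 0.19. Lox, the lysyl oxidase that starts cross-links, read 10.35, 9.74, 11.04 and 10.50 in GC+ and 9.37, 9.58, 10.56 and 9.33 in GC- (0.70 ± 0.34, 1.62-fold, adjusted p = 0.768). The vehicle mouse GC- 3 lay among the GC+ mice, and the other 3 lay below all of them.

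Collagen receptors and uptake genes were higher in GC+ for 7 of 9, with a median of 0.18. Mrc2, the endocytic receptor Endo180 that carries collagen fragments to lysosomes, read 8.04, 8.42, 9.59 and 8.86 in GC+ and 7.71, 7.97, 7.80 and 7.38 in GC-. Every GC+ mouse lay above every GC- mouse, as for 1.81% of all genes, and the difference of 1.01 ± 0.31 (2.01-fold) was the largest of the 62; its unadjusted limma p was 0.0105 and its adjusted p 0.768. Over the alternatives tried it ran from 0.72 without GC+ 3 to 1.24 without GC+ 1. The top mouse for Mrc2 was GC+ 3, which was also the highest of 8 for 3 fibrillar chains (Col5a3, Col2a1 and Col27a1) and the lowest for 3 (Col1a1, Col1a2 and Col3a1). Basement membrane partners, the laminins, nidogens and heparan sulphate proteoglycans, were higher in GC+ for 10 of 15, with a median of 0.11. Lamb3, a chain of epithelial laminin, read 6.47, 6.69, 6.54 and 6.64 in GC+ and 6.37, 6.45, 6.31 and 6.03 in GC- (0.30 ± 0.11). Its groups did not overlap, and its unadjusted limma p was 0.0223 and its adjusted limma p 0.768. The difference was 0.17 without the 3 arrays of highest epididymis score. Hspg2, the proteoglycan perlecan, read 11.27, 11.25, 11.48 and 11.59 in GC+ and 10.79, 11.46, 11.19 and 10.83 in GC- (0.33 ± 0.16), and 0.12 without the 3 arrays of highest epididymis score. Lama4, the laminin chain of fat cell and capillary membranes, differed by 0.11 ± 0.20, and by -0.03 without GC- 1. Sparc, which binds collagen on its way out of the cell, differed by 0.17 ± 0.10, and by 0.05 without the 3 arrays. Fibril partners, the small proteoglycans and glycoproteins that coat or connect fibrils, were higher in GC+ for 6 of 10, with a median of 0.12 and differences between -0.22 and 0.31.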

How the data were processed

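Total RNA (100 ng per array) was hybridised to Affymetrix Mouse Gene 2.0 ST arrays. The authors deposited log2 values from RMA in Affymetrix Expression Console, per the labels and the submitters' processing notes, which also name Partek 6.6 with no role. RMA equalises the arrays' distributions. The annotation version is not given in the sources used here. Array medians were 6.09 to 6.13, pairs of arrays correlated at 0.879 to 0.986, and 0 pairs were identical. The number of arrays limits the precision.

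Of 41345 probe sets, 23521 had 1 symbol in the platform annotation, 1814 several and 16010 none. Collagens had 47 one-symbol probe sets for 44 genes, all matched by Entrez identifier to RefSeq GRCm38.p6, and 1 shared probe set was not used. The probe set with the highest mean was kept per gene, and the dimmest 33.3% of genes were left out. Groups were compared with limma 3.58.1 (R 4.3.3, lmFit and eBayes), adjusted over 14787 genes, after checking on simulated data. The labels call the mice biological replicates. Members, classes, lists, tests and alternatives were chosen with earlier results of these data known. Values per mouse are given for chains with an unadjusted p under 0.05 or groups apart and a set of chains of types I, III to VI, VIII, XII, XIV, XV and XVIII. They are also given for Col6a4, next to the dim limit, and for Col5a3 and Col6a5, which fall outside these rules. The brightest chain of each class has them too, except Col7a1 (range and difference) and Col26a1 (difference). Col19a1, just below the limit, has only a mean. Partner genes are named by the same p, with 5 set genes. Lists were for collagen modification, trimming, receptors, basement membrane and fibril partners, adipocytes, fibroblasts, endothelium, smooth muscle, mesothelium, macrophages and epididymis. Alternatives changed the filter, normalization, probe set, variance model, weights, block, epididymal covariate and the mice included.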

Additional observations from a re-analysis of the deposited data

Results flagged for a closer look

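Values standing apart from the other 3 of their group were found for 6 of the 102 combinations of group with a tested chain, a named partner gene or a class score; about 5.1 would occur by chance with normal values. Within the vehicle group, GC- 3 stood high for Col1a1 (11.89, next 10.73) and Col1a2 (11.52, next 10.36), and GC- 1 stood low for Col9a3 (6.01, next 6.37). Within the prednisolone group, GC+ 2 stood high for Col6a4 (7.44, next 5.83) and low for Col22a1 (5.93, next 6.42), and GC+ 3 stood low for Col6a6 (7.57, next 7.99).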

How the results depend on the processing

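The count of chains past the adjusted threshold was 0 under every alternative tried. Chains at an unadjusted limma p under 0.05 numbered 3, beside 5.69% of all genes. The count was 5 with array weights (13.4% of all genes) and 5 with the epididymis score as covariate (8.26%). It was 1 without the arrays of high epididymis score (3.36%) and 1 with the replicate block (3.41%). Leaving out 1 mouse gave 0 to 9, beside 2.95% to 10.8% of all genes. The labels do not state that same-numbered mice are related. The correlation of their deviations from the group means ran from -0.578 to 0.13, and 0 of 8 arrays correlated best with their own number. Epididymal RNA also enters these deviations, and a shared litter or cage was not tested. The median of type IV chains ran from -0.057 to 0.202 without 1 mouse, and the fibrillar median was -0.077 without the arrays of high epididymis score. Among the chains and partner genes followed under every alternative, that setting also turned the signs of Col1a1 (-0.421), Col4a1 (-0.041), Col4a3 (-0.024), Col4a5 (-0.142), Col5a1 (-0.092), Col5a2 (-0.206), Col6a1 (-0.181), Col6a2 (-0.287), Col6a4 (-0.109), Col8a1 (-0.093) and Lama4 (-0.056). Of the remaining chains it turned Col13a1 (-0.045) and Col27a1 (-0.061). The sign changes listed next are for the followed genes only. Array weights turned Col15a1 (0.07), Col1a2 (0.168), Col3a1 (0.173), Col4a3 (-0.053), Col4a4 (-0.025) and Col6a3 (0.038), and repeated quantile normalization turned Col4a3 (-0.005). Leaving out 1 mouse at a time turned signs within these ranges: Col15a1 -0.351 to 0.023, Col1a1 -0.064 to 0.40, Col1a2 -0.194 to 0.259, Col3a1 -0.297 to 0.217, Col4a3 -0.067 to 0.097, Col4a4 -0.056 to 0.078, Col4a5 -0.106 to 0.23, Col6a1 -0.061 to 0.283, Col6a2 -0.121 to 0.255, Col7a1 -0.001 to 0.043, Col8a1 -0.006 to 0.478 and Lama4 -0.025 to 0.232. The count of chains with a larger SD in GC- (32) ran from 26 to 30 without 1 vehicle mouse, an alternative chosen after seeing the data. The cause of these changes was not tested. How far each chain's signal stands above background was not measured; the limit of 5.82 only leaves out the dimmest 33.3% of genes.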
